A study of Talaromyces pinophilus with 6 samples.

Results

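The genes described are 8 *T. pinophilus* genes that the study lists among those reported earlier to act in fungal asexual development: *TP03893*/*FadA*, *TP10098*/*FlbA*, the *FlbA*-like gene *TP11170*, *TP03987*/*VeA*, *TP10901*/*VosA*, *TP05733*/*WetA*, *TP04237*/*NimX* and *TP10226*/*Asp*. They were chosen by gene number from the conidiation genes that the study names, and they are 8 of the 11632 genes listed in any library and 8 of the 8522 genes tested. The tested strain, Δ*TP05746*, lacks *TP05746*, a gene for a Zn2Cys6 transcription factor, and was made in Δ*TpKu70*, the parental strain, which itself lacks *TpKu70*, a gene of DNA end joining, and comes from wild-type strain 1–95. Both strains therefore carry the *TpKu70* deletion, and no library of strain 1–95 belongs to the series. Mycelium of both strains was harvested at 12 h in medium with 1% soluble corn starch, to which it had been moved from glucose, and 3 RNA libraries were sequenced per strain. The labels number the replicates but do not tie them to separate cultures. Every p-value therefore speaks of the scatter among these libraries, part of which may be technical, and in RNA of whole mycelium fewer cells of a type and less RNA per cell cannot be told apart.

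Conidia are the asexual spores of filamentous fungi. In *Aspergillus nidulans*, the G protein alpha subunit FadA in its GTP-bound form promotes vegetative growth and holds back conidiation, and FlbA, a regulator of G protein signalling, speeds the return of FadA to its inactive form. The velvet proteins VeA and VosA are nuclear regulators that balance developmental programmes, and VosA is also needed for spore viability. WetA acts late in the central conidiation pathway, in the maturation of spores, and NimX is the cyclin-dependent kinase that drives the cell cycle. These roles are background from *A. nidulans* and were not measured here. No role is given for *Asp*, because the study names it without saying what it encodes.

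The deleted gene was at 0 in every Δ*TP05746* library, against 135, 42 and 28 expected counts in the Δ*TpKu70* libraries, and was therefore at least 33.7-fold lower at a floor of 3 counts per library. Library totals ran between 4091718 and 4190623 expected counts in Δ*TP05746* and between 4600785 and 4696455 in Δ*TpKu70*. The most abundant 10 genes took 7.48% to 8.58% of the counts in Δ*TP05746* and 15.18% to 22.98% in Δ*TpKu70*, so levels are given as CPM scaled with TMM factors, which ran from 1.31 to 1.37 in Δ*TP05746* and from 0.67 to 0.88 in Δ*TpKu70*. Replicate 1 of Δ*TpKu70* stood apart, with Pearson correlations across genes of 0.898 and 0.89 to replicates 2 and 3 of its strain, while those reached 0.965 to each other. Among the 3299 genes past the threshold, 2037 (61.7%) had a level in this library that lay between those of all Δ*TP05746* libraries and those of Δ*TpKu70* replicates 2 and 3, and results are therefore also given without it. The genes taken to mark conidia were *TP05897*/*RodA*, a hydrophobin of the spore surface, and *WetA*. *RodA* had 2, 0 and 0 expected counts in Δ*TP05746* and 3, 5 and 7 in Δ*TpKu70*, which is near the floor in both strains. *WetA* was above the floor, with 59, 53 and 42 expected counts in Δ*TP05746* and 56, 96 and 55 in Δ*TpKu70*. *RodA* alone therefore does not show that transcripts of conidia were absent.

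Of the 8 genes, 3 were higher in Δ*TP05746* than in Δ*TpKu70* (*FadA*, *NimX* and *Asp*), 4 were lower (*FlbA*, the *FlbA*-like gene, *VeA* and *WetA*) and *VosA* did not pass the test. The test was edgeR's quasi-likelihood test on rounded expected counts, fitted to all 8522 genes, and a call needed a Benjamini-Hochberg adjusted p of 0.05 or less together with a change of at least 1 on the log2 scale. Among all genes tested, 18.2% were higher and 20.5% were lower. The study named these genes from its own list of changed genes in the same libraries, so their share of calls is no independent evidence. The median log2 fold change was 0.06 over the 8 genes and 0.03 over all genes tested. The same 3 genes lay above all Δ*TpKu70* libraries in every Δ*TP05746* library, as 32.1% of all genes did, and the same 4 lay below, as 29.9% did. Without Δ*TpKu70* replicate 1, 3 genes were likewise higher and 4 lower.

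**Figure D1:**
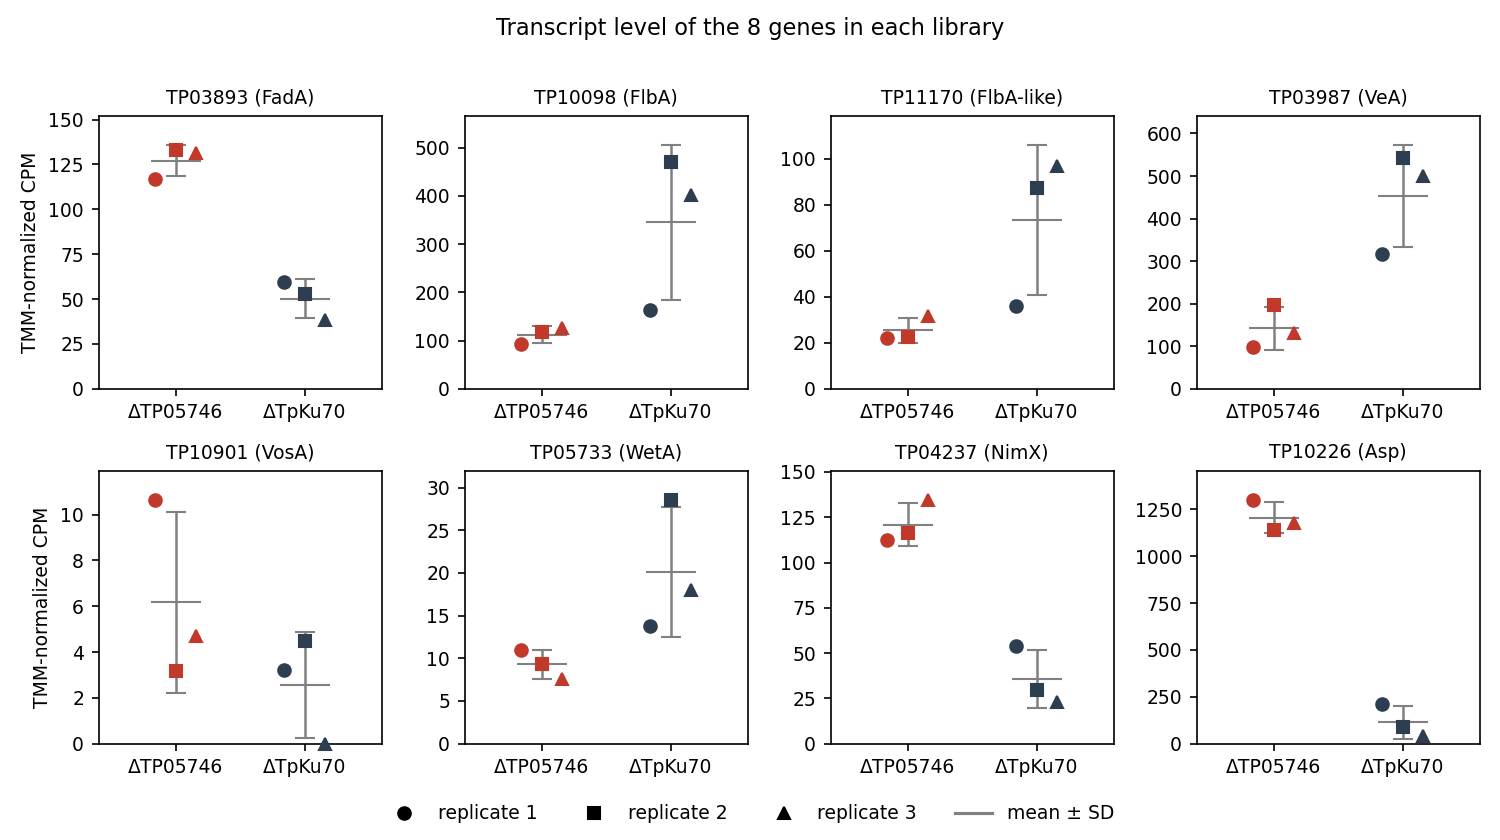
TMM-normalized CPM of the 8 genes in each library, with Δ*TP05746* on the left and Δ*TpKu70* on the right of each panel. Symbols are libraries and grey bars are mean ± SD (n = 3). The strains are separated in 7 panels and overlap for *VosA*, and Δ*TpKu70* replicate 1 is the Δ*TpKu70* library nearest to Δ*TP05746* in those 7 panels.

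The G protein genes moved in opposite directions. *FadA* had 117, 133 and 131 CPM in the Δ*TP05746* libraries, against 59.4, 53.0 and 38.6 CPM in the Δ*TpKu70* libraries. Every Δ*TP05746* library was above every Δ*TpKu70* library, with means of 127 ± 8.75 and 50.3 ± 10.7 CPM (SD, n = 3 each). The log2 fold change was 1.34 (SE 0.21, 95% interval 0.84 to 1.83, edgeR adjusted p = 0.00296), or 2.52-fold, and it was 1.41 (adjusted p = 0.00109) without Δ*TpKu70* replicate 1. The expected counts of *FadA* have decimals (627, 760 and 724 in Δ*TP05746*, against 241, 178 and 118 in Δ*TpKu70*, after rounding), so RSEM divided part of its reads with some other gene model and its level is uncertain to that extent. In edgeR's test against the fold minimum itself, *FadA* was not called (adjusted p = 0.0848).

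*FlbA*, whose product is the regulator acting on FadA in *A. nidulans*, had 92.1, 119 and 125 CPM in Δ*TP05746*, against 164, 470 and 402 CPM in Δ*TpKu70*. All Δ*TP05746* libraries were below all Δ*TpKu70* libraries in TMM-normalized CPM, and the Δ*TpKu70* libraries themselves were far apart, with a mean of 112 ± 17.7 CPM in Δ*TP05746* and 345 ± 161 CPM in Δ*TpKu70* (SD, n = 3 each). The strains overlapped in unscaled expected counts (493, 678 and 692 in Δ*TP05746*, against 666, 1580 and 1229 in Δ*TpKu70*) and in FPKM (40.4, 55.7 and 57.3, against 51.8, 124 and 98.2). *FlbA* was lower in Δ*TP05746*, with a log2 fold change of −1.62 (SE 0.40, 95% interval −2.58 to −0.66, edgeR adjusted p = 0.017), or −2.02 (adjusted p = 0.000225) without Δ*TpKu70* replicate 1. The call was lost without Δ*TP05746* replicate 1, 2 or 3 (edgeR adjusted p = 0.0723, 0.0592 and 0.056).

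The *FlbA*-like gene had 21.9, 22.6 and 31.5 CPM in Δ*TP05746*, against 36.0, 87.2 and 96.7 CPM in Δ*TpKu70*. As with *FlbA*, the strains did not overlap in TMM-normalized CPM, where Δ*TpKu70* replicate 1 was the lowest Δ*TpKu70* library by far, but they did in unscaled expected counts (117, 129 and 174 in Δ*TP05746*, against 146, 293 and 296 in Δ*TpKu70*) and in FPKM (12.8, 14.2 and 19.2, against 15.2, 30.6 and 31.6). In edgeR's fit it was lower in Δ*TP05746* by a log2 fold change of −1.53 (SE 0.39, 95% interval −2.47 to −0.59, edgeR adjusted p = 0.0193), and −1.92 (adjusted p = 0.000328) without Δ*TpKu70* replicate 1. The call was lost without Δ*TP05746* replicate 1 or 2 (adjusted p = 0.0779 and 0.0748) and without Δ*TpKu70* replicate 2 or 3 (adjusted p = 0.0559 and 0.0541). The ratio of *FlbA* to the *FlbA*-like gene, a pair chosen after its values were seen, was nearly the same in the strains. It was 3.17, 3.93 and 2.98 in Δ*TP05746* and 3.42, 4.04 and 3.11 in Δ*TpKu70*, as FPKM over FPKM within a library, so the mean log2 ratio differed by −0.07.

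The ratio of *FadA* to *FlbA* was turned round between the strains. *FadA* was called higher and *FlbA* lower, so a difference in their ratio restates those calls and is no further evidence. Both genes were chosen with earlier results of these data known. As a ratio of FPKM within a library, a quantity that no scaling between libraries can change, it was 2.65, 2.37 and 2.20 in Δ*TP05746*, against 0.764, 0.237 and 0.203 in Δ*TpKu70*. *FadA* was thus listed at the higher FPKM in all 3 Δ*TP05746* libraries and *FlbA* in all 3 Δ*TpKu70* libraries. The mean log2 ratio was 1.26 ± 0.13 in Δ*TP05746* and −1.59 ± 1.05 in Δ*TpKu70* (SD, n = 3 each), a difference of 2.85 or 7.22-fold. The difference was 2.50 to 3.45 when any 1 library was left out. By an exact two-sided permutation test its p was 0.1, the smallest that 3 libraries against 3 can give, and it was 0.125 after Benjamini-Hochberg adjustment over the 5 ratios tested, so this test cannot bring such a ratio past 0.05 with 3 libraries a strain.

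The ratio of *FadA* to the *FlbA*-like gene was 8.39, 9.31 and 6.57 in Δ*TP05746*, against 2.61, 0.957 and 0.631 in Δ*TpKu70*. The strains did not overlap here either, and the mean log2 ratio differed by 2.78 (exact permutation p = 0.1, adjusted p = 0.125). This difference, too, restates a higher and a lower call.

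**Figure D2:**
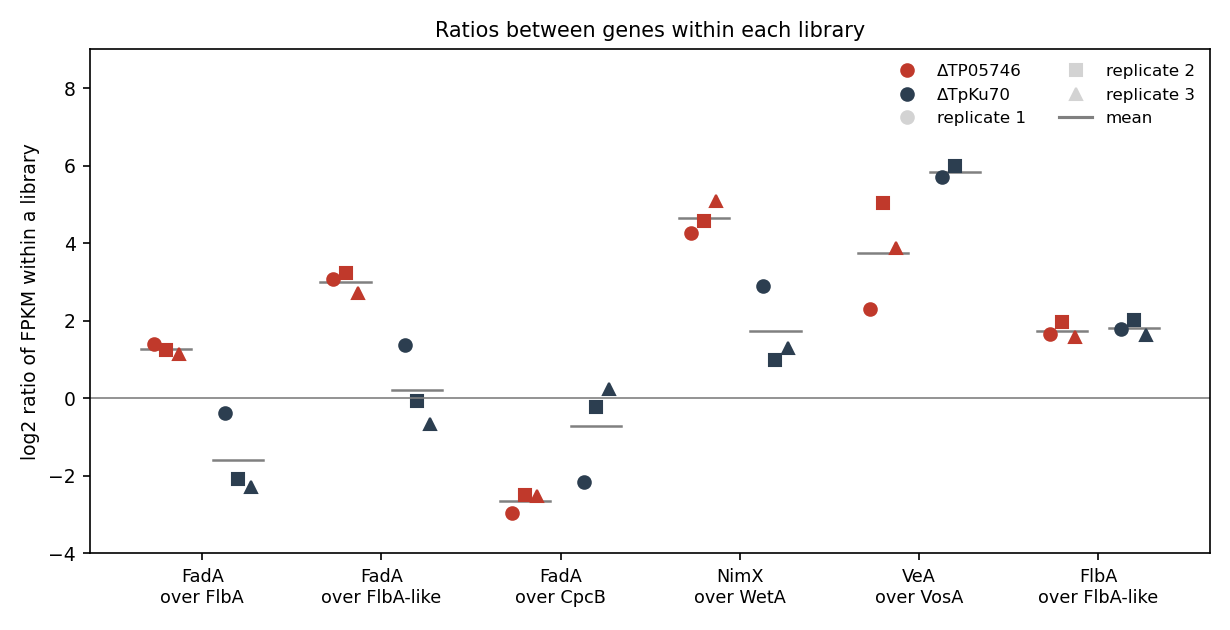
Log2 ratio of FPKM between pairs of genes within each library, with Δ*TP05746* left of Δ*TpKu70* for each pair. Symbols are libraries and grey lines are means. The strains are apart for the first 5 ratios and overlap for *FlbA* over the *FlbA*-like gene, and *VeA* over *VosA* has only 2 Δ*TpKu70* points because *VosA* was listed at 0 in replicate 3.

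Of 4 other G protein and cAMP genes, taken from the study's annotation of its changed genes and all tested, 2 were higher and 2 were lower in Δ*TP05746*. Among all genes tested, 18.2% were higher and 20.5% lower. Genes from a list of changed genes are likely to be called, so nothing is read from this count. *TP05753*/*CpcB*, called a G protein beta subunit by annotation only, had 799, 652 and 653 CPM in Δ*TP05746*, against 231, 54.2 and 28.4 CPM in Δ*TpKu70*. Whether its product pairs with FadA was not tested, so the values below are not read as a ratio within 1 G protein. The log2 fold change of *CpcB* was 2.74 (SE 0.76, edgeR adjusted p = 0.0254), against 1.34 for *FadA*, and it was 4.02 (adjusted p = 0.000143) without Δ*TpKu70* replicate 1. *FadA* over *CpcB* was 0.128, 0.178 and 0.175 in FPKM in Δ*TP05746*, against 0.224, 0.85 and 1.18 in Δ*TpKu70*, a mean log2 difference of −1.94 without overlap (exact permutation p = 0.1, adjusted p = 0.125). The call of *CpcB* was lost without Δ*TP05746* replicate 1, 2 or 3 or Δ*TpKu70* replicate 2 (edgeR adjusted p between 0.0575 and 0.0796).

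The 3 genes annotated as adenylate cyclase, the enzyme that makes cAMP, did not move together. *TP05728* had 131, 142 and 120 CPM in Δ*TP05746*, against 32.0, 14.6 and 12.1 CPM in Δ*TpKu70* (log2 fold change 2.73, edgeR adjusted p = 0.0021). *TP03606* was lower in Δ*TP05746*, with 112, 106 and 113 CPM, against 283, 647 and 732 CPM in Δ*TpKu70* (log2 fold change −2.33, adjusted p = 0.00346). *TP04310*, whose effective length of 9878 bases is over that of *TP03606* (2225) and *TP05728* (2116), was lower too, with 37.7, 51.7 and 57.3 CPM in Δ*TP05746*, against 128, 175 and 156 CPM in Δ*TpKu70* (log2 fold change −1.64, adjusted p = 0.00194). Effective length is the expected count of a gene divided by its FPKM and scaled by the library total.

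Of the velvet genes, *VeA* was lower in Δ*TP05746* and *VosA* could not be placed. *VeA* had 97.8, 198 and 132 CPM in Δ*TP05746*, against 317, 542 and 501 CPM in Δ*TpKu70*. The strains did not overlap, with means of 142 ± 50.7 and 453 ± 120 CPM (SD, n = 3 each), and *VeA* had the widest spread among the Δ*TP05746* libraries of the 7 genes that were called, at a coefficient of variation of 35.6%. *VeA* was called lower, with a log2 fold change of −1.67 (SE 0.34, 95% interval −2.49 to −0.85, edgeR adjusted p = 0.00855), and −1.93 (adjusted p = 0.00157) without Δ*TpKu70* replicate 1. *VeA* kept its call when any 1 library was left out.

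*VosA* had 10.6, 3.15 and 4.71 CPM in Δ*TP05746*, against 3.20, 4.46 and 0 CPM in Δ*TpKu70*, so that the strains overlapped. On the FPKM scale they did not overlap, at 10.6, 3.49 and 5.03 in Δ*TP05746* and 2.36, 2.76 and 0 in Δ*TpKu70*. Its expected counts were low and had decimals (57, 18 and 26 in Δ*TP05746* and 13, 15 and 0 in Δ*TpKu70*, after rounding). The spread between libraries, 64.1% of the mean in Δ*TP05746* and 90.1% in Δ*TpKu70*, was above the 17.2% and 32.5% that counting error alone gives. The log2 fold change of 1.24 (SE 0.95, edgeR adjusted p = 0.316) had a 95% interval of −1.03 to 3.50, which holds both no change and a rise as large as that of *Asp*. *VosA* was called under none of the 16 alternatives that gave a value.

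The ratio of *VeA* to *VosA* was 4.94, 32.5 and 14.7 in FPKM in Δ*TP05746*, against 51.9 and 63.2 in the Δ*TpKu70* libraries in which *VosA* was above 0. The mean log2 ratio was lower by 2.11 in Δ*TP05746* without overlap, but the exact permutation p of 0.2 is the smallest that 3 libraries against 2 can give. Of the 4 genes annotated as LaeA-like methyltransferase, a partner of VeA in *A. nidulans*, or as APSES DNA-binding proteins, a class of fungal developmental transcription factors, 3 were higher in Δ*TP05746* and the other had a positive log2 fold change. These genes, too, were taken from the study's list of changed genes, and 18.2% of all genes tested were higher, so nothing is read from their share. The LaeA-like genes *TP01473* (29.7 ± 3.37 CPM in Δ*TP05746* and 12.6 ± 1.3 CPM in Δ*TpKu70*, SD, n = 3 each) and *TP02090* (6.41 ± 3.64 CPM in Δ*TP05746* and 0.70 ± 0.67 CPM in Δ*TpKu70*) had log2 fold changes of 1.24 (edgeR adjusted p = 0.00504) and 3.07 (adjusted p = 0.0166). The call of *TP02090*, with 6, 1 and 1 expected counts in Δ*TpKu70*, was lost without Δ*TP05746* replicate 1 or without Δ*TpKu70* replicate 2 or 3 (adjusted p between 0.0512 and 0.0555). The APSES gene *TP00495* was higher in Δ*TP05746* (log2 fold change 1.41, adjusted p = 0.00691) and *TP02163* was at 0.53 (adjusted p = 0.0668), which did not pass.

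*WetA* was the gene with the smallest change among those called. It had 11.0, 9.28 and 7.61 CPM in Δ*TP05746*, against 13.8, 28.6 and 18.0 CPM in Δ*TpKu70*. The strains did not overlap in CPM, with means of 9.30 ± 1.70 and 20.1 ± 7.62 CPM (SD, n = 3 each), but they did in unscaled expected counts (59, 53 and 42 in Δ*TP05746* and 56, 96 and 55 in Δ*TpKu70*) and in FPKM (6.03, 5.45 and 4.35, against 5.45, 9.40 and 5.50). The log2 fold change was −1.11 (SE 0.35, 95% interval −1.95 to −0.27, edgeR adjusted p = 0.0403), and −1.39 (adjusted p = 0.0083) without Δ*TpKu70* replicate 1. The call was lost without Δ*TP05746* replicate 1, 2 or 3 (adjusted p = 0.0755, 0.118 and 0.14), without Δ*TpKu70* replicate 2 or 3 (0.11 and 0.0643), and without a filter on low FPKM (0.0553).

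Of 5 other conidiation genes that the study named, 4 were tested, of which 3 were lower in Δ*TP05746* and 1 did not pass. The study named them from its own list of changed genes, and 20.5% of all genes tested were lower, so their share is no independent evidence. The *ArpA*-like gene *TP13250* had 14.9, 9.63 and 18.1 CPM in Δ*TP05746*, against 407, 3034 and 2310 CPM in Δ*TpKu70* (log2 fold change −7.07, SE 0.88, edgeR adjusted p = 0.00142), and decimals in its counts leave that level uncertain in the same way as for *FadA*. ArpA is a scytalone dehydratase of spore pigment synthesis in *Aspergillus*. The other genes called, *RodA* (adjusted p = 0.0345) and *TP05092*/*ArpA* (adjusted p = 0.0198), rest on very few counts. *ArpA* had 0 in all Δ*TP05746* libraries and 2 in each Δ*TpKu70* library, and *RodA* was under the floor of 3 counts in every Δ*TP05746* library, so no fold is given for either. *RodA* kept its call under 7 alternatives and lost it under 9, DESeq2 among them (adjusted p = 0.052). *ArpA* kept its call under 8 and lost it under 4, among them DESeq2 (adjusted p = 0.126), no filter (just above 0.05) and leaving out Δ*TP05746* replicate 2 (0.0534). Under the remaining alternatives, which include leaving out each Δ*TpKu70* library, *ArpA* gave no value. *TP04427*/*Bud4*, also with decimals in its counts, had 19.4, 24.3 and 24.8 CPM in Δ*TP05746*, against 0, 7.74 and 5.88 CPM in Δ*TpKu70*, without overlap, and at a log2 fold change of 2.35 (SE 0.98, adjusted p = 0.0903) it did not pass, but it was called under 5 alternatives: without Δ*TpKu70* replicate 1 (1.68, adjusted p = 0.00233), with library totals (3.26, adjusted p = 0.0251), by DESeq2 (2.31, adjusted p = 0.0481) and by limma on log2(FPKM + 1) or log2(FPKM + 0.1) (adjusted p = 0.00207 and 0.0161).

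*NimX* was higher in Δ*TP05746*, also under all 17 alternatives tried. It had 112, 116 and 135 CPM in Δ*TP05746*, against 53.7, 29.8 and 23.2 CPM in Δ*TpKu70*. The strains did not overlap, with means of 121 ± 12.0 and 35.6 ± 16.1 CPM (SD, n = 3 each). The log2 fold change was 1.76 (SE 0.33, 95% interval 0.98 to 2.54, edgeR adjusted p = 0.00578), or 3.39-fold, and 2.13 (adjusted p = 0.000195) without Δ*TpKu70* replicate 1. Set against *WetA*, the late spore gene, *NimX* was at 19.2, 23.9 and 33.7 times its FPKM in Δ*TP05746*, against 7.42, 1.98 and 2.46 times in Δ*TpKu70*, a mean log2 difference of 2.91 without overlap (exact permutation p = 0.1, adjusted p = 0.125). *NimX* was called higher and *WetA* lower, so this difference restates those calls and is no further evidence.

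Of 6 genes annotated as cell cycle regulators or septins, which are GTP-binding proteins that assemble at sites of septation, 5 were listed and tested, of which 4 were higher and 1 was lower in Δ*TP05746*. They were taken from the study's list of changed genes, and 18.2% of all genes tested were higher and 20.5% lower, so nothing is read from their share. The septin genes *TP05485* (758 ± 60.6 CPM in Δ*TP05746* and 90.5 ± 61.7 CPM in Δ*TpKu70*) and *TP05766* (459 ± 32.2 CPM in Δ*TP05746* and 64.4 ± 37.3 CPM in Δ*TpKu70*, SD, n = 3 each) had log2 fold changes of 3.06 and 2.83 (edgeR adjusted p = 0.00359 and 0.00255). The M-phase inducer phosphatase gene *TP04209*, of a family that activates cyclin-dependent kinases, and the aurora kinase gene *TP04559*, of a family that acts in chromosome segregation, had log2 fold changes of 1.80 and 1.95 (adjusted p = 0.00147 and 0.000618). The exception was *TP00476*, another cyclin-dependent kinase gene, with 71.7, 62.5 and 65.2 CPM in Δ*TP05746*, against 108, 272 and 330 CPM in Δ*TpKu70* (log2 fold change −1.83, adjusted p = 0.011). Of 4 genes annotated as MAP kinases or their kinases, 2 were tested, with *TP05283* higher (log2 fold change 2.94, adjusted p = 0.00444) and *TP05533* not past the threshold (0.26, adjusted p = 0.495).

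*Asp* had the largest change of the 8 genes and the highest level of them in Δ*TP05746*. It had 1300, 1140 and 1175 CPM in Δ*TP05746*, against 209, 89.0 and 42.1 CPM in Δ*TpKu70*. The Δ*TP05746* libraries were close together, at 1205 ± 83.8 CPM, and the Δ*TpKu70* libraries were not, at 113 ± 86.2 CPM (SD, n = 3 each), with replicate 1 the highest. The log2 fold change was 3.41 (SE 0.59, 95% interval 1.99 to 4.82, edgeR adjusted p = 0.00456), or 10.6-fold, and 4.13 (adjusted p = 0.000199) without Δ*TpKu70* replicate 1. In Δ*TP05746* the FPKM of *Asp* was above that of at least 99.4% of all listed genes in each library, and in Δ*TpKu70* above that of 94.4%, 87.9% and 78.3%.

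**Figure D3:**
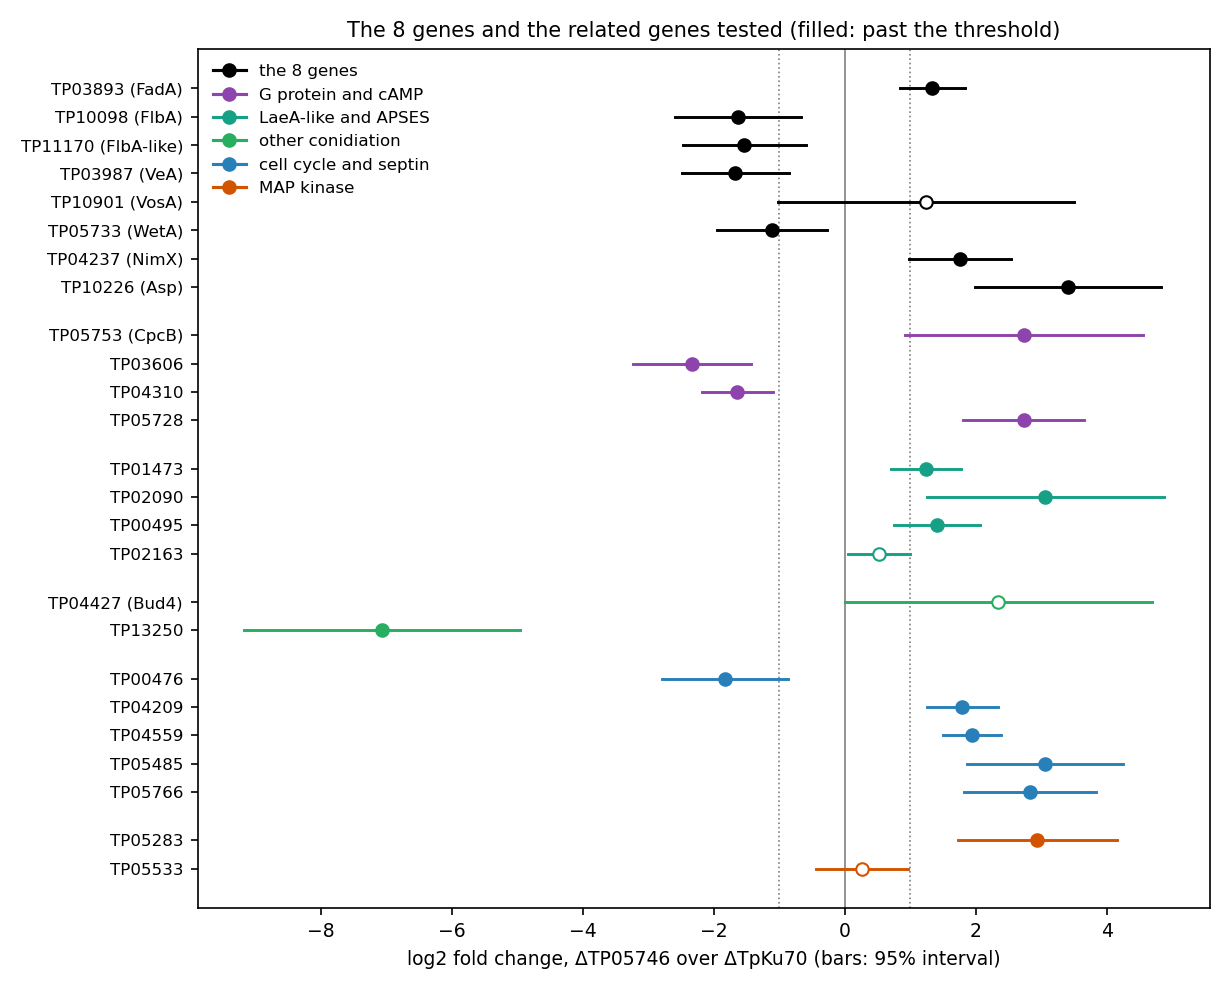
Log2 fold change of the 8 genes and of the related genes tested, Δ*TP05746* over Δ*TpKu70*, with 95% intervals. Filled symbols are past the threshold, and dotted lines mark a log2 change of 1 in either direction. *ArpA* and *RodA* are left out because they were under 3 counts in every Δ*TP05746* library, and the widest interval among the 8 genes is that of *VosA*, from −1.03 to 3.50.

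Over all 5 lists of related genes, 19 of 23 genes were tested, of which 10 were higher, 6 were lower and 3 did not pass, against 18.2% higher and 20.5% lower among all genes tested. With library totals 13 were higher and 3 lower: *TP04310*, *TP00476* and *RodA* lost their calls, and *Bud4*, *TP05533* and *TP02163* gained one. The lists were drawn from the study's own list of changed genes, so these directions are no independent evidence. *TP10751*, a beta-tubulin gene whose upstream DNA was the control probe in the study's binding assays, was at 0 in 5 libraries and had 13 expected counts in Δ*TpKu70* replicate 2.

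The order of levels, by FPKM, which is scaled by gene length, differed between the strains. In Δ*TP05746* the order by mean FPKM was *Asp* (1363 ± 35.8), *NimX* (131 ± 15.5), *FadA* (122 ± 13.0), *VeA* (79.8 ± 30.9), *FlbA* (51.1 ± 9.34), the *FlbA*-like gene (15.4 ± 3.42), *VosA* (6.38 ± 3.75) and *WetA* (5.28 ± 0.85). The ranges of neighbours overlapped from *NimX* through *FlbA* and again for *VosA* and *WetA*, while *Asp* and the *FlbA*-like gene were each apart from both neighbours. In Δ*TpKu70* the order was *VeA* (149 ± 26), *FlbA* (91.2 ± 36.5), *Asp* (83.3 ± 73.1), *FadA* (29.6 ± 9.82), the *FlbA*-like gene (25.8 ± 9.21), *NimX* (24.2 ± 14.3), *WetA* (6.78 ± 2.27) and *VosA* (1.71 ± 1.49), all SD with n = 3. There the ranges of neighbours overlapped from *VeA* through *NimX*, and *WetA* and *VosA* were apart from their neighbours and from each other.

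**Figure D4:**
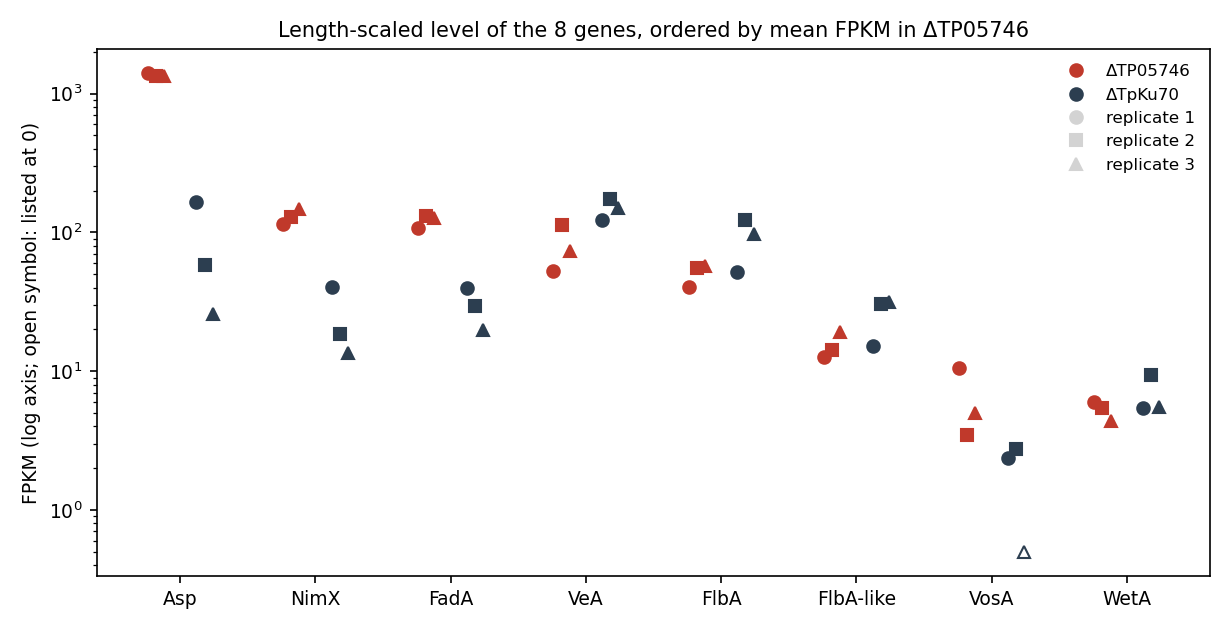
FPKM of the 8 genes in each library on a log axis, ordered by mean FPKM in Δ*TP05746*, with Δ*TP05746* left of Δ*TpKu70* for each gene. The open symbol marks *VosA* in Δ*TpKu70* replicate 3, listed at 0 and drawn at the foot of the axis. *Asp* stands far above the other genes in Δ*TP05746* (1363 ± 35.8 FPKM), while in Δ*TpKu70* *VeA* has the highest mean (149 ± 26 FPKM).

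With library totals or on the FPKM scale, the 4 lower genes lost their calls and the 3 higher genes kept theirs. These scales moved the median log2 change over all genes up, to between 0.69 and 0.85, which enlarges a positive fold and shrinks a negative one. No scale tried moved it down by a like amount. The contrast therefore cannot show that the higher calls are free of the scaling. Where CPM was set by the library totals alone, without TMM factors, the median change over all tested genes moved to 0.85 on the log2 scale, against 0.03 with them. The log2 fold changes were then 2.14 for *FadA*, 2.53 for *NimX*, 4.13 for *Asp* and 2.01 for *VosA*, and −0.74 for *FlbA*, −0.65 for the *FlbA*-like gene, −0.80 for *VeA* and −0.26 for *WetA*. Under this scaling 3 genes were higher and 0 were lower by edgeR, with 1 of the 4 at an unadjusted p of 0.05 or less, while DESeq2 with its own factors called 3 higher and 4 lower. The edgeR adjusted p was 0.103 for *FlbA*, 0.132 for the *FlbA*-like gene, 0.0671 for *VeA* and 0.534 for *WetA*. None of the 8 genes changed sign. Relative to the median of all genes the values were 1.29, 1.68, 3.29 and 1.16 for *FadA*, *NimX*, *Asp* and *VosA*. They were −1.58, −1.49, −1.65 and −1.10 for *FlbA*, the *FlbA*-like gene, *VeA* and *WetA*. Taking off this median is close to what the TMM factors do, so these values return near the main ones and are no further evidence. limma on log2(FPKM + 1) gave 3 genes higher and 0 lower as well (1 of the 4 at an unadjusted p of 0.05 or less), although *VeA* had an adjusted p of 0.0351 there and missed only the fold minimum, at −0.95. Among the related genes, *TP04310* and *TP00476* also missed the fold minimum with library totals, at −0.80 and −0.94, while *TP05533* and *TP02163* passed it, at 1.07 and 1.35 (edgeR adjusted p = 0.033 and 0.00435).

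**Figure D5:**
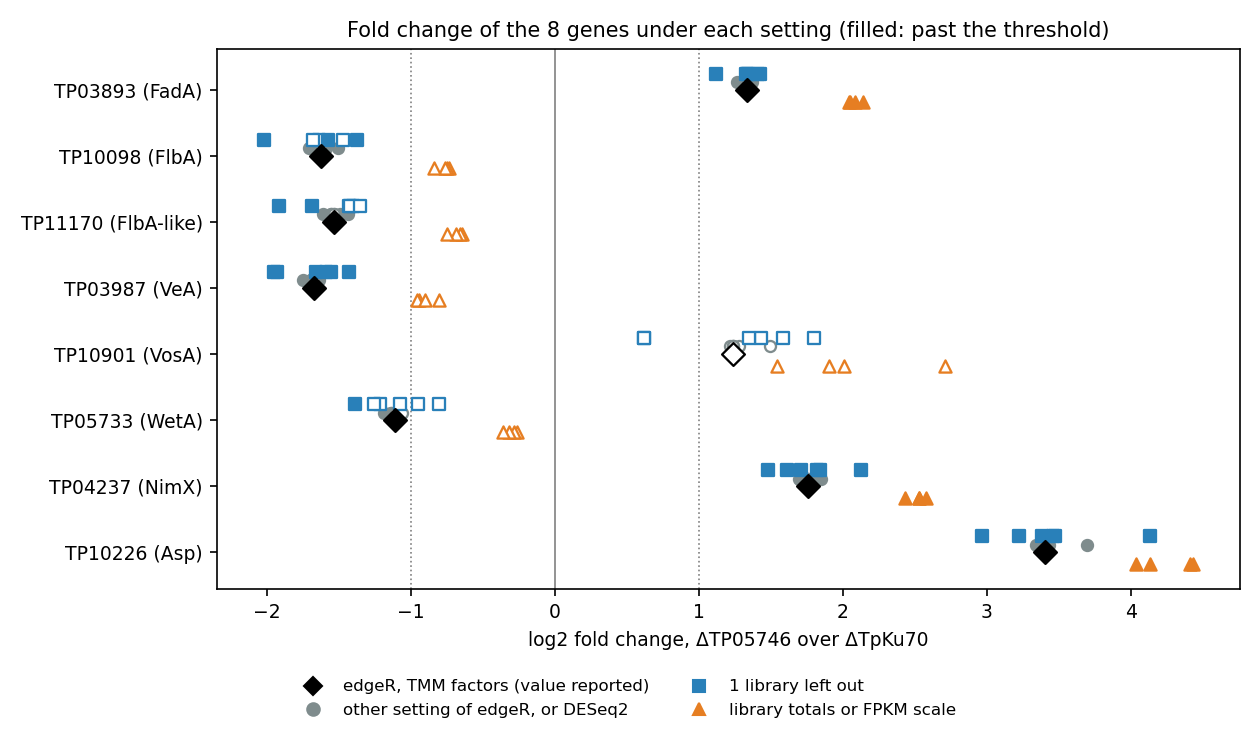
Log2 fold change of the 8 genes, Δ*TP05746* over Δ*TpKu70*, as reported (black diamonds) and under the 17 alternatives. Filled symbols are past the threshold and dotted lines mark a log2 change of 1 in either direction. All values keep their sign, and with library totals or on the FPKM scale (orange triangles) the 4 lower genes lie between −1 and 0.

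Counted over the 17 alternatives, *NimX* and *Asp* kept their call in 17 and *FadA* in 16. *VeA* kept its call in 12, *FlbA* in 9, the *FlbA*-like gene in 8 and *WetA* in 5. These counts are not of equal challenges. Without a fold minimum no call can be lost, and the ratio of mean FPKM keeps edgeR's adjusted p and changes the fold only. Library totals and the FPKM scale shift all folds up, which works against lower calls alone. The biological coefficient of variation that edgeR fitted was 0.22 for *FadA*, 0.37 for *FlbA*, 0.36 for the *FlbA*-like gene, 0.33 for *VeA*, 0.79 for *VosA*, 0.34 for *WetA*, 0.30 for *NimX* and 0.48 for *Asp*, against a median of 0.31 over all genes tested.

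For each of the 8 genes, the 2 tested genes with the most similar profile over the 6 libraries were found by the Euclidean distance between centred log2(CPM + 1) values. These distances describe likeness only, and all profiles share the scaling of the libraries. *FadA* was nearest to *TP11217* (distance 0.16) and *TP04034* (0.18), *NimX* to *TP08177* (0.21) and *TP10723* (0.25), and *FlbA* to *TP09755* (0.22) and *TP05191* (0.24), a glycosyl hydrolase family 30 gene. The *FlbA*-like gene was nearest to *TP00078* (0.28) and *TP02950* (0.30), *WetA* to *TP08833* (0.29) and the beta-glucosidase gene *TP07981* (0.29), and *VeA* to *TP02360* (0.33) and *TP08865* (0.39). *VosA* was nearest to *TP04709* (0.31) and *TP02845* (0.92), and *Asp* to *TP10855* and *TP04797* (both 0.51). None of the nearest genes is among the 8 genes or the related genes listed. A small distance on this scale need not mean a like fold change. By edgeR the log2 fold change was −2.797 for *TP07981*, against −1.11 for *WetA*, and −2.385 for *TP05191*, against −1.62 for *FlbA*.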

How the data were processed

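RNA of 3 Δ*TP05746* and 3 Δ*TpKu70* libraries was compared, grouped by strain as the labels give it. Per the methods and the submitters' processing notes, the authors mapped reads to the strain 1–95 genome with BWA 0.7.10-r789 and Bowtie2 2.1.0 and used RSEM 1.2.12. The authors deposited an expected count per gene, which is not normalized, and an FPKM value, scaled by gene length and library size. Genes absent from a library's table were read as 0. Strandedness of counting is not given in the sources used here, so reads of overlapping genes cannot be told apart. Of 11632 genes, 2326 have decimals in a count, because RSEM divided reads among gene models.

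Expected counts were rounded. The 8522 genes that reached an FPKM of 1 in 3 or more of the 6 libraries were scaled with TMM factors and tested with edgeR 4.0.16 (quasi-likelihood, two-sided) in R 4.3.3. The 95% intervals come from the same fit, and SE is the absolute log2 fold change over the square root of F. The test was tested on simulated data. Far fewer genes changed there than were called here, so the simulation does not bear on the scaling of these libraries. Ratios of FPKM within libraries were compared by exact permutation with SciPy 1.17.1. Alternatives were library totals, median-ratio factors, DESeq2 1.42.0, limma 3.58.1 on log2(FPKM + 1) or log2(FPKM + 0.1), no filter, an FPKM filter of 5, no fold minimum, a test against the fold minimum, the ratio of mean FPKM, a replicate block and each library left out. Figures were drawn with matplotlib 3.10.9. Library totals of 4091718 to 4696455 set the precision, and the floor of 3 counts covers counting error only.

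The members and lists were chosen with earlier results of these data known. The genes named are the 8 members, *TP05746*, *TP10751*, the listed related genes and the 2 nearest profiles of each member. No gene ID matched the reference table, which is of another strain (0 of 8 members), so no coordinates are given. Columns of the authors' own comparisons were not used.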

Additional observations from a re-analysis of the deposited data

How the results depend on the processing

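The 3 genes that were higher (*FadA*, *NimX*, *Asp*) were called under all alternatives but 1, in which *FadA* was lost. Library totals and the FPKM scale enlarged positive folds, so they could hardly take a higher call away. The count of lower genes, 4, was 0 with library totals, with limma on log2(FPKM + 1) or log2(FPKM + 0.1), in the test against the fold minimum and when the fold was taken from mean FPKM. It was 1 to 4 with 1 library left out (4 without Δ*TpKu70* replicate 1, 1 without Δ*TP05746* replicate 1 or 2). Over all genes, 1550 higher and 1749 lower became 3290 and 1059 with library totals, 3123 and 1069 with limma on log2(FPKM + 1), 3232 and 1107 on log2(FPKM + 0.1), and 741 and 1136 against the fold minimum, and 951 to 2079 higher and 1303 to 1800 lower with 1 library left out. The log2 ratio of *VeA* to *VosA* differed by −3.67 with 0.1 added to each FPKM, which admits Δ*TpKu70* replicate 3, in place of −2.11. The other ratios moved by less than their spread, with ranges under leaving out a library of 2.34 to 3.37 for *FadA* over the *FlbA*-like gene, −2.66 to −1.46 for *FadA* over *CpcB*, 2.54 to 3.50 for *NimX* over *WetA* and −2.75 to −1.39 for *VeA* over *VosA*. No member changed sign. Of the related genes, *TP05533* did, at −0.045 without Δ*TpKu70* replicate 2 in a range of −0.045 to 0.38, where it was not called either. The cause of these changes was not tested. The replicate numbers did not pair the libraries: deviations from the strain means of same-numbered libraries correlated at −0.08, −0.04 and 0.01. With the replicate number as a block, 1380 genes were higher and 1512 lower, and of the 8 genes *WetA* lost its call (−1.06, edgeR adjusted p = 0.0885), as did *RodA* (0.105) and *ArpA* (0.136) of the related genes. At 42 to 96 counts for *WetA* and 0 to 57 for *VosA*, depth limits what can be said of both.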
